A study of Mus musculus with 6 samples.

Results

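Slc11a2, the gene of the divalent metal transporter DMT1, was examined in L929 cells together with 9 genes of iron import, reduction, storage, export and regulation (Tfrc, Steap3, Slc39a14, Slc40a1, Fth1, Ftl1, Ncoa4, Ireb2 and Aco1). These 10 genes were taken by symbol from 27507 gene identifiers. Slc11a2 opens the group because the comparison of genotypes in these same samples called it lower (limma adjusted p = 0.00251). Its difference is therefore given as a description, and the other 9 genes were added for their roles around it. L929 is a fibroblast line from mouse connective tissue, and poly(A) RNA was sequenced from 3 control samples, whose genotype label is WT, and 3 samples labelled STING KO. STING is the adaptor that relays the signal of the cytosolic DNA sensor cGAS, and the study compared cells with and without it. No treatment is named for either group, and whether the knockout cells are a clone or a pool, and whether replicates are separate cultures, the sources used here do not say. A p-value below therefore speaks only to sample-to-sample spread, which may be technical.

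Mammalian cells take up iron mainly as transferrin bound to the transferrin receptor. In the endosome the iron is reduced by STEAP3 and carried into the cytosol by DMT1. Ferritin stores what is not used, NCOA4 carries ferritin to the lysosome for release of its iron, and ferroportin is the only known iron exporter. The iron regulatory proteins IRP1 (Aco1) and IRP2 (Ireb2) bind a hairpin in several of these mRNAs, the iron-responsive element, when iron is scarce. Bound upstream of the coding sequence they block translation, and bound downstream they protect the mRNA from decay.

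The hairpins of the members are shown because they divide the genes into those whose mRNA is steered upstream and those steered downstream of the coding sequence. GENCODE M21 transcripts on GRCm38 were searched for CNNNNNCAGTGN on the transcript strand, where the 5 bases before the loop pair with the 5 after it, G-T pairs allowed. A second form allowed 1 unpaired base in the 3′ arm. In the sequences the 6 bases of the loop are in capitals and up to 6 bases on either side of the hairpin are included. The coordinates are those of the hairpin without these flanks.
Fth1, 5′ UTR, chr19:9982738-9982754, plus strand: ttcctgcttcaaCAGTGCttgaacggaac
Ftl1, 5′ UTR, chr7:45459785-45459801, minus strand: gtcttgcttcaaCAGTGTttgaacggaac
Slc40a1, 5′ UTR, chr1:45925471-45925487, minus strand: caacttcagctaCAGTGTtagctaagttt
Slc11a2, 3′ UTR, chr15:100395158-100395175, minus strand: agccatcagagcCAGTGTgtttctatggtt
Tfrc, 3′ UTR, chr16:32631225-32631241, plus strand: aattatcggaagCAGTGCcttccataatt
Tfrc, 3′ UTR, chr16:32631604-32631620, plus strand: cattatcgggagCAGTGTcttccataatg
Tfrc, 3′ UTR, chr16:32631669-32631685, plus strand: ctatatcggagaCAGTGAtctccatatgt
Tfrc, 3′ UTR, chr16:32631716-32631732, plus strand: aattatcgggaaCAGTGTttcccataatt

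Both ferritin genes and the exporter carry the hairpin upstream, and Slc11a2 and Tfrc carry it downstream. The Slc11a2 hairpin was the only member sequence of the second form. A full stem was found in 160 of 21901 coding genes (0.731%) and either form in 437 (1.995%). Tfrc was the only gene with 4 full hairpins in 1 transcript, and no other gene had more than 2. The hairpin was in 4 of 5 coding transcripts for Fth1, 1 of 2 for Ftl1 and 1 of 4 for Slc40a1. For Slc11a2, 1 of 6 coding transcripts held the hairpin, and for Tfrc 1 of 3. The deposited values are per gene, so transcripts with and without the hairpin were counted together. Ireb2, Aco1, Steap3, Slc39a14 and Ncoa4 had no match to these letters in their UTRs.

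Values below are normalized counts, which are gene counts that the authors divided by a size factor of each sample. Each sample sums to between 14382072 and 14526606. Sting1 RNA (Tmem173 in the table) was at 311 to 329 in control and 80.6 to 93.4 in STING KO, so the libraries go with their labels. Of 11 fibroblast markers, Vim, Fn1 and Col1a2 were at 26399 or more in every library, while Lum and Dcn were at 0 to 4.99 in the 4 libraries other than control replicate 3 and STING KO replicate 1. The 11 markers summed to 184005 to 196023 in control and 197462 to 211552 in STING KO, without overlap. Of the 9 markers tested, the groups of 2 did not overlap in the higher direction and those of 0 in the lower. This was so for 5.76% and 6.32% of all genes tested. limma, limma-voom and the authors' test called 0 of the 9 markers, with 0 at an unadjusted p at or under 0.05. Control replicate 3 and STING KO replicate 1 also held transcripts of liver cells, with the 12 hepatocyte markers summing to 4791 and 4599, against 232 to 599 in the other 4. Serum albumin (Alb) was the largest of them, and none of the 12 was at 0 in all libraries. Of 12408 genes tested, limma called 32 lower in STING KO (0.258%) and 0 higher (0.0%), with 791 (6.37%) at an unadjusted p at or under 0.05 in either direction. limma-voom called 30 lower. The authors' deposited table has 35 genes (0.251%) past the threshold in the lower direction and 6 in the higher.

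Of the 10 iron genes, 9 reached the minimum for testing, 10 normalized counts in 3 or more samples, and Slc40a1 did not. Of the 9, Slc11a2 alone was called, against 0.258% of all genes called lower, and since this comparison chose Slc11a2 nothing is read from that count. Slc11a2 was also the 1 member past the threshold in the authors' deposited table. An unadjusted p at or under 0.05 was reached by 2 of the 9, Slc11a2 and Tfrc, beside 6.37% of all genes tested. The sign was negative for 6 members and positive for 3, beside 6306 and 6102 of the 12408 genes tested. The median log2 fold change of the 9 was -0.11, or 92.6% of control, and the median of all genes tested was 99.8% of control. The 95% interval of each of the 9 lay within 2-fold of control, as did that of 11806 of the 12408 genes tested. In bulk RNA, fewer cells of a type and less RNA per cell cannot be told apart.

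**Figure D1:**
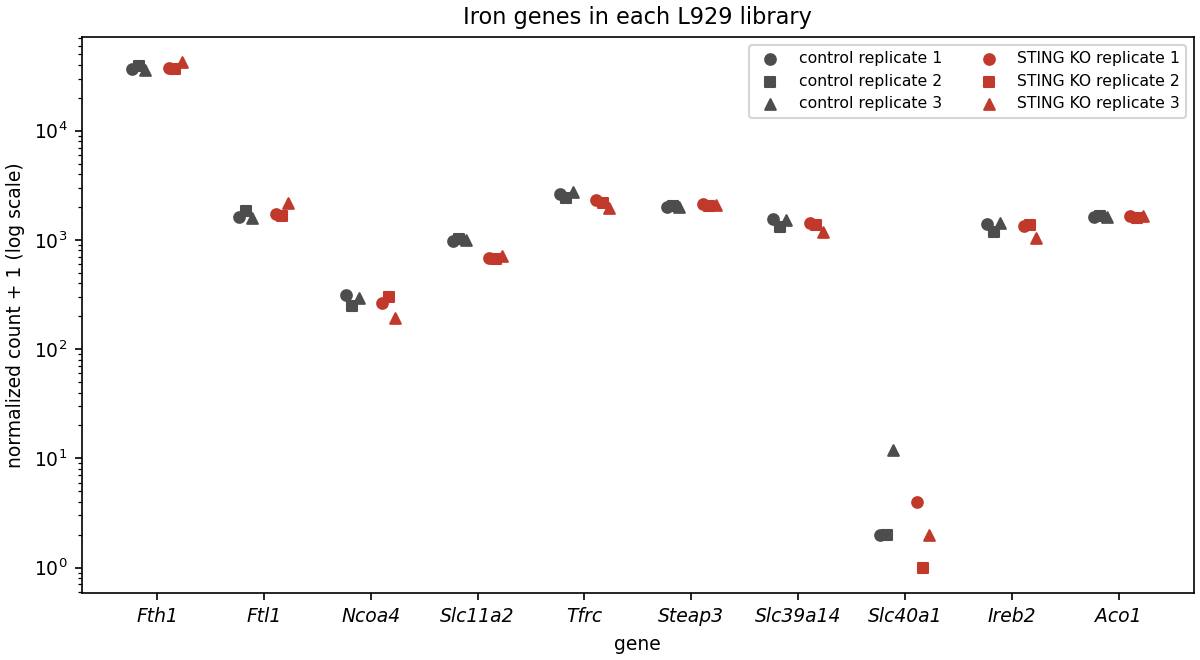
Normalized count plus 1 of the 10 iron genes on a log axis, 1 point per library, with control in grey and STING KO in red and the marker shape giving the replicate. Fth1 sits at 35849 or more in every library and Slc40a1 at or below 10.9, and Slc11a2 and Tfrc are the genes whose groups do not overlap.

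The groups did not overlap for 2 of the 9 tested members, Slc11a2, which this comparison chose, and Tfrc. In the lower direction this was so for 6.32% of all genes tested. Slc11a2 (ENSMUSG00000023030, chromosome 15, 100387898 to 100425072, minus strand in GRCm38), the transporter that moves ferrous iron out of the endosome, was at 967, 1012 and 986 normalized counts in control. In STING KO it was at 688, 674 and 705. All STING KO libraries were below all control libraries, and the spread within each group was small, with a coefficient of variation of 2.24% in control and 2.25% in STING KO. The means were 988 ± 22.1 and 689 ± 15.5 (SD, n = 3 each), so that 69.7% of the control level was present in STING KO, a difference of -0.52 (SE 0.05) on the scale of log2(normalized count + 0.1). Under 18 other settings the log2 fold change stayed between -0.54 and -0.49, and it was past the threshold in 16 of them. These settings reuse the samples that chose Slc11a2, so this count too is only a description. It was not past the threshold with the replicate number as a block (limma adjusted p = 0.0955). Nor was it without both libraries that held liver transcripts (limma adjusted p = 0.214, 2 samples per group). The log2 fold change itself was -0.52 in both.

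Tfrc (ENSMUSG00000022797, chromosome 16, 32608920 to 32632794), the transferrin receptor gene, was at 2642, 2417 and 2717 normalized counts in control. It was at 2308, 2196 and 1937 in STING KO. The groups did not overlap here either, which was so in the lower direction for 2 of the 9 tested members and for 6.32% of all genes tested. In the higher direction it was so for 0 of the 9 members and for 5.76% of all genes. Tfrc was nevertheless not called. The mean of 2147 ± 190.3 was 82.8% of the control mean of 2592 ± 156 (SD, n = 3 each), with a 95% interval of 73.8% to 92.8%. This is -0.27 on the log2 scale (SE 0.07, limma adjusted p = 0.482). Without control replicate 2 and STING KO replicate 3 the log2 fold change was -0.25 and the limma adjusted p was 0.00746, a fit with 2 samples per group that called 0.733% of genes lower and 0.33% higher. That setting was chosen after the values were seen, and those were the libraries with the lowest Tfrc value of their group, so it narrows the spread of Tfrc by its choice and nothing is read from its p. Leaving out single libraries gave an adjusted p of 0.311 to 0.996.

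The genes of the 2 other import steps overlapped between the groups. Steap3 (chromosome 1, 120190757 to 120272705), the endosomal ferrireductase, was at 1991, 2054 and 2012 normalized counts in control and at 2125, 2028 and 2102 in STING KO. Its 95% interval was 95.9% to 111% of control (limma adjusted p = 0.785). The 69.7% of Slc11a2 lay outside it, and outside the interval of every other tested member but Ncoa4. Slc39a14 (chromosome 14, 70303469 to 70351425) encodes ZIP14, a plasma membrane importer of iron that is not bound to transferrin, and of zinc and manganese. It was at 1560.5, 1322 and 1524 in control and at 1421, 1357 and 1185 in STING KO, with an interval of 78.8% to 103% of control (limma adjusted p = 0.738).

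**Figure D2:**
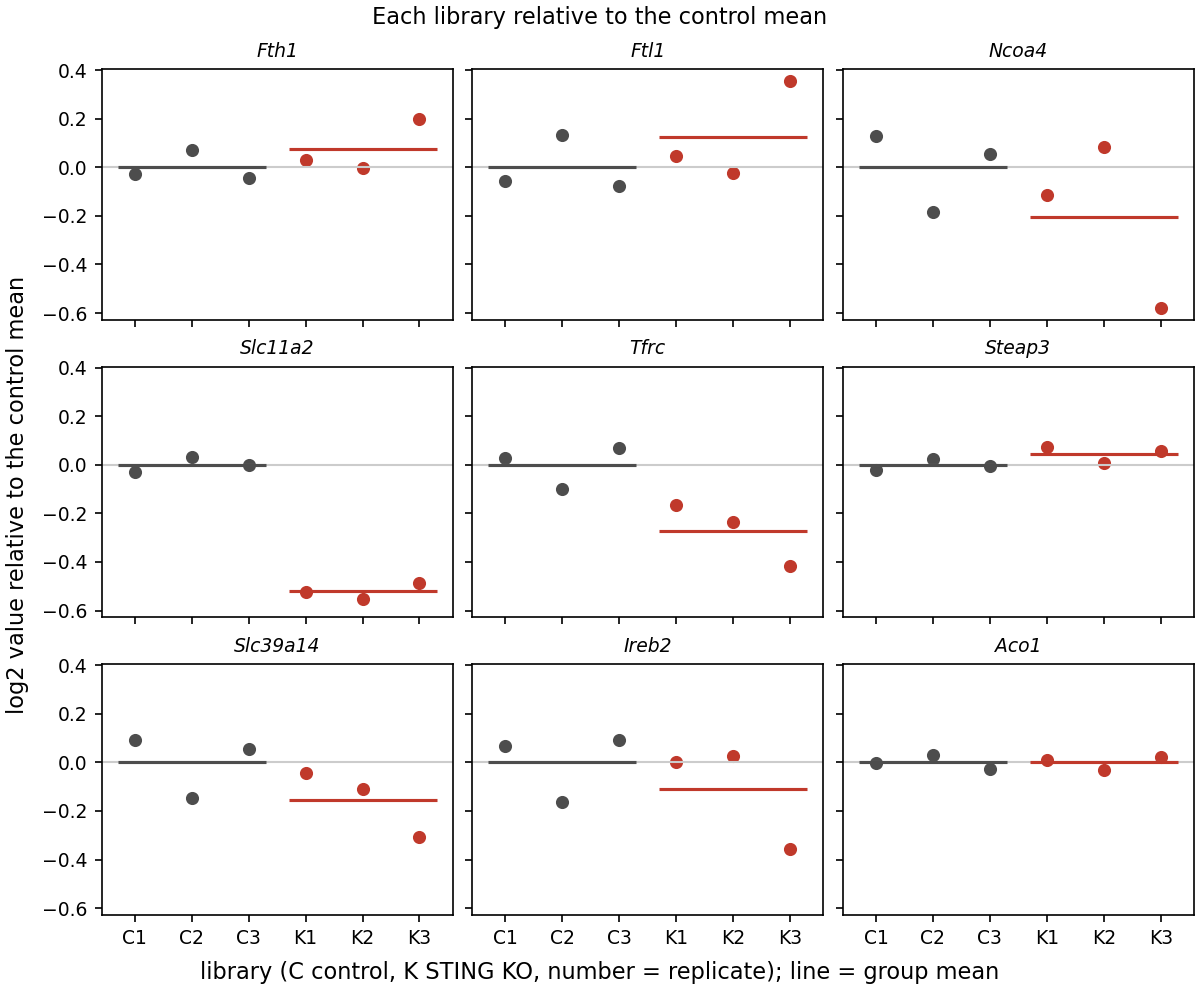
log2 value of the 9 tested iron genes in each library relative to the control mean, with a line at each group mean. The 3 STING KO libraries lie at -0.52, -0.55 and -0.49 for Slc11a2, while Ireb2, Slc39a14 and Ncoa4 show their lowest point of each group in control replicate 2 and STING KO replicate 3.

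Of the storage genes, neither ferritin chain nor the ferritin receptor Ncoa4 was called. Fth1 (ENSMUSG00000024661, chromosome 19, 9980598 to 9985098), the ferritin heavy chain that oxidizes incoming iron, was at 36326, 38885 and 35849 normalized counts in control. In STING KO it was at 37716, 36924 and 42465, and its 95% interval was 95.9% to 116% of control (limma adjusted p = 0.749). Ftl1 (chromosome 7, 45457944 to 45459884), the light chain that helps the iron core form, was at 1621, 1850.4 and 1598 in control and at 1741, 1657 and 2159 in STING KO, with an interval of 93.5% to 127% (0.747). For both chains the highest library was STING KO replicate 3 and the highest control library was replicate 2. Ferritin genes have processed copies in the mouse genome, so reads may be shared between them and these levels are uncertain. Ncoa4 (chromosome 14, 32159865 to 32179855), the receptor for autophagy of ferritin, was at 310.5, 249 and 295 in control and at 262, 301 and 189.8 in STING KO. Its interval was the widest of the tested members, at 67.9% to 111% of control (limma adjusted p = 0.744).

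The exporter was barely detected. Slc40a1 (chromosome 1, 45908068 to 45926523), which encodes ferroportin, was at 0.998, 0.998 and 10.9 normalized counts in control and at 2.97, 0 and 1.004 in STING KO. The highest value of each group was in a library with liver transcripts, whose part in it was not tested. No fold change is given for values this low.

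Neither iron regulatory protein gene was called. Aco1 (chromosome 4, 40143081 to 40198338), which encodes the cytosolic aconitase that turns into IRP1 when it lacks its iron-sulfur cluster, was at 1628, 1667 and 1604 normalized counts in control. It was at 1643, 1597 and 1658 in STING KO, a mean of 99.96% of control with a 95% interval of 92.7% to 108% (limma adjusted p = 0.997). Ireb2 (chromosome 9, 54863789 to 54912530), which encodes IRP2, a protein degraded when iron is plentiful, was at 1396, 1190.1 and 1419 in control and at 1330.2, 1354 and 1038 in STING KO. Its interval was 78.3% to 109% of control (0.777). The mRNA levels do not show the binding activity of either protein, which is set after translation.

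**Figure D3:**
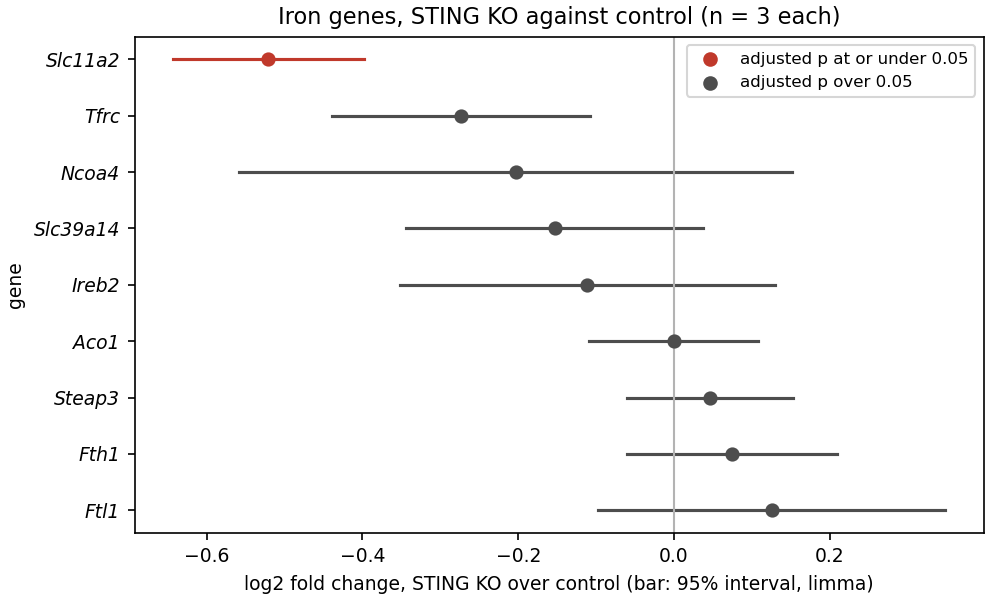
Difference between STING KO and control on the log2 scale for the 9 tested iron genes, as points with 95% limma intervals, 3 libraries per group, the called gene in red. The intervals of Slc11a2 and Tfrc lie below 0 and the other 7 include 0; Slc11a2 was chosen from this comparison.

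Per kilobase of the longest annotated transcript, the control levels in normalized counts ran from Fth1 (17954) through Ftl1 (1746), Tfrc (530.1), Aco1 (426), Steap3 (391), Slc39a14 (287), Ireb2 (231), Slc11a2 (224) and Ncoa4 (60.2) to Slc40a1 (1.10). The ranges over the 3 control libraries did not overlap between neighbours in this order, except for Ireb2 and Slc11a2. The Fth1 level was thus far above that of Ftl1, with the reservation on shared reads given above. With the mean transcript length in place of the longest, Slc11a2 (736) and Slc39a14 (964) stood above Steap3 (673) and Ireb2 (386), so the middle of the order depended on the transcript length taken.

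Some members varied together across libraries within each group. Control replicate 2 was the lowest control library, and STING KO replicate 3 the lowest of its group, for the same 4 of the 9 tested members, Tfrc, Ireb2, Slc39a14 and Ncoa4. The same 2 libraries were the highest of their groups for Slc11a2, Fth1, Ftl1 and Aco1. The median log2 value relative to the control mean was also taken by longest transcript, over all tested genes. Under 1000 bases it was 0.11 in control replicate 2 and 0.22 in STING KO replicate 3. For genes of 4000 bases or more it was -0.06 and -0.13. The 4 low members have longest transcripts of 4733 to 5770 bases, Ftl1 has 968 and Slc11a2 has 4415. Steap3, with 5158, was the highest control value in control replicate 2 and lay between the others of its group in STING KO replicate 3. These 2 libraries were picked after the values were seen, and the part of length in the pattern was not tested. With the length trend of each library removed, the log2 fold change was -0.49 for Slc11a2 (limma adjusted p = 0.00138) and -0.23 for Tfrc (0.152).

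The genes most like Slc11a2 in their values over the 6 samples were sought by Pearson's r of log2 values among 10647 genes with a mean of at least 50 normalized counts. They were Ccl7, a monocyte chemokine (r = 0.996), Tmem173 itself (0.995), the transcription factor gene Pou2f2 (0.994), Mipol1 (0.994), Vmp1, an endoplasmic reticulum protein of autophagosome formation (0.994), and Zc3h12a (0.993). The 6 points form 2 groups, so r measures a shared step between the groups with little spread inside them, and not its size. Slc11a2 was chosen for such a step, so genes with a clear step the same way rank high by that choice. With 119 genes at r over 0.9, nothing is read from the ranking. Ccl7 went from 700.2 to 119 normalized counts on average and Mipol1, which was not called, from 73.4 to 66.4. Of the other iron genes looked up, Cp ranked at 48 (r = 0.953), Lcn2 at 150 (r = 0.882) and Tfrc at 398 (r = 0.788).

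Beyond the members, 8 lists of iron genes chosen by function held 95 genes, of which 83 were tested. limma called 2 of them lower, Cp and Zc3h12a, and 0 higher, against 0.258% of all genes called lower, and the median of the 83 was 99.7% of control. The groups of 7 did not overlap in the lower direction and those of 1 in the higher, beside 6.32% and 5.76% of all genes tested. An unadjusted p at or under 0.05 was reached by 8 of them, beside 6.37% of all genes tested. Of the list genes limma-voom called 3, and the authors' deposited table has 2 past its threshold. Earlier results on these data were known when the lists were made, so these counts describe the lists and support nothing.

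Cp encodes ceruloplasmin, the copper ferroxidase that loads exported iron onto transferrin. It was at 1154, 1118 and 1312 normalized counts in control and at 819, 832 and 802 in STING KO, with no overlap. The means were 1195 ± 103 and 818 ± 15.01 (SD, n = 3 each), 68.4% of control, a log2 difference of -0.54 (SE 0.07, limma adjusted p = 0.0097). Leaving out control replicate 1 (0.0631) or STING KO replicate 1 (0.0828) ended the call, as did leaving out both libraries with liver transcripts (0.295, log2 fold change -0.48). The highest control value was in control replicate 3, a library with liver transcripts. In STING KO replicate 1, the other such library, the value of 819 lay between the others of its group. Of the 10 genes of iron export and the hepcidin axis 4 were tested, and the others, Heph, Tmprss6 and Neo1, were not called. Hamp, the hepcidin gene, was at 2.01 to 12.9, with its highest value in STING KO replicate 1, and Hamp2 was at 0 in every library.

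Zc3h12a encodes Regnase-1, an endonuclease known to cleave the 3′ UTR of the Tfrc mRNA among others. It was at 841, 818 and 752 normalized counts in control and at 223, 199 and 209 in STING KO. That is 26.2% of control, or -1.93 on the log2 scale (SE 0.07, limma adjusted p = 1.8e-06). Of the 6 decay factors it was the 1 called, beside 0.258% of all genes called lower. All 6 had a negative sign, as did 6306 of the 12408 genes tested, and their median log2 fold change was -0.15. The list was made with earlier results known, so nothing is read from these counts. Rc3h1, the gene of the RNA-binding protein Roquin-1, was at 665, 581 and 652 in control and at 575, 591 and 517 in STING KO (limma adjusted p = 0.738).

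**Figure D4:**
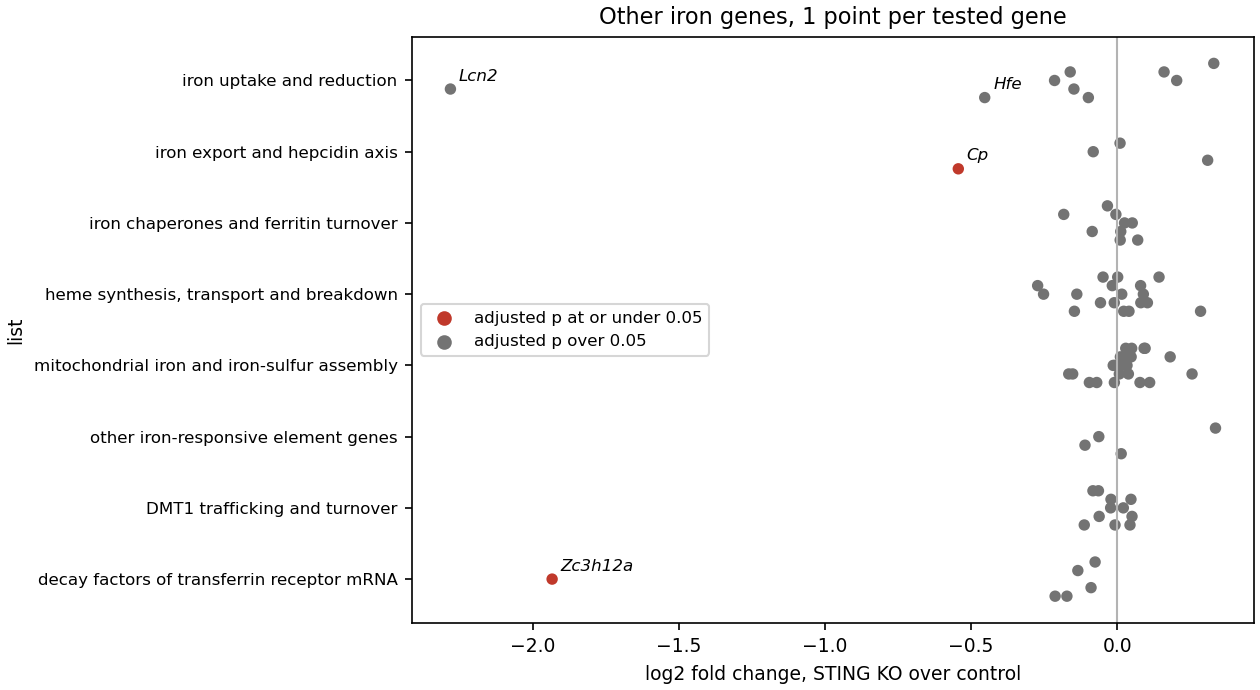
Difference between STING KO and control on the log2 scale for every tested gene of the 8 iron lists, 1 point per gene, called genes in red. Cp at -0.54 and Zc3h12a at -1.93 are called; Lcn2 at -2.28 has the lowest value and is not, and most other points lie near 0.

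Among 9 tested genes of iron uptake and reduction 0 were called by limma, 1 by limma-voom and 0 in the authors' deposited table. An unadjusted p at or under 0.05 was reached by 2, beside 6.37% of all genes tested. Lcn2, the gene of lipocalin 2, which binds iron-loaded siderophores, had the largest difference. It was at 295, 319 and 347 normalized counts in control and at 146, 46.8 and 41.2 in STING KO. The log2 difference was -2.28 (SE 0.39, limma adjusted p = 0.0721). The groups did not overlap, which was so in the lower direction for 6.32% of all genes tested. The highest STING KO value was in a library with liver transcripts. Without STING KO replicate 1 the log2 fold change was -2.86 (limma adjusted p = 1.77e-05), and without STING KO replicate 3 it was -1.95 (0.0433). The adjusted p reached 0.329 when other single libraries were left out, and it was 8.6e-05 without both libraries with liver transcripts. Hfe, whose protein binds the transferrin receptor, was at 37.9, 41.9 and 42.7 in control and at 33.7, 27.9 and 28.1 in STING KO (adjusted p = 0.738). Slc11a1, the phagosomal relative of DMT1, was at 581, 635 and 573 in control and at 526, 502 and 574 in STING KO, with overlapping groups.

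No heme gene or mitochondrial iron gene was called. Of 18 tested heme genes 0 were called by limma, by limma-voom or in the authors' deposited table. An unadjusted p at or under 0.05 was reached by 1 gene, beside 6.37% of all genes tested. That gene was Hmox1, heme oxygenase 1, which releases iron from heme, at 1071, 1467 and 1360 normalized counts in control and 1517, 1400 and 1822 in STING KO. Its log2 difference was 0.29 (SE 0.12, limma adjusted p = 0.738). Bach1, the repressor of Hmox1, was at 538, 426 and 554 in control and at 411, 475 and 386 in STING KO (0.738). The median log2 fold change of the heme genes was 0.01. Of 22 mitochondrial iron and iron-sulfur genes 0 were called by either tool or in the authors' deposited table. All 22 had a 95% interval within 2-fold, as did 11806 of the 12408 genes tested. An unadjusted p at or under 0.05 was reached by 3 of the 22, beside 6.37% of all genes tested. Slc25a37, mitoferrin 1, was at 1759, 1629 and 1801 in control and at 1582, 1544 and 1539 in STING KO. Lyrm4, a subunit of the cysteine desulfurase complex, was at 371, 388 and 336 in control and at 415, 414 and 480.0 in STING KO. The groups did not overlap for either gene, which was so for 6.32% of all genes tested in the lower direction and 5.76% in the higher. Neither gene was called (limma adjusted p = 0.738 and 0.732).

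No gene was called, by limma, limma-voom or the authors' test, in the remaining 3 lists, and none of their members had an unadjusted p at or under 0.05. For the 11 genes of DMT1 trafficking and turnover the median log2 fold change was -0.02. Nedd4l, a ubiquitin ligase of the NEDD4 family, was at 852, 865 and 826 normalized counts in control and at 779, 768 and 804 in STING KO (limma adjusted p = 0.738). Its groups did not overlap, which was so in the lower direction for 6.32% of all genes tested. Vps35, the retromer subunit that returns DMT1 from endosomes, was at 4048, 3834 and 3976 in control and at 3876, 3891 and 3580 in STING KO. The 9 iron chaperone and ferritin turnover genes had a median of 0.01. Among them Herc2, a ubiquitin ligase of NCOA4, was at 879, 666 and 840.5 in control and at 707, 796 and 597 in STING KO, and Fbxl5, the iron sensor that marks IRP2 for degradation, was at 1536, 1478 and 1599 and at 1484, 1557 and 1315. Of the other genes known for an iron-responsive element 4 were tested. Pfn2 (19.95 to 31.8 and 25.9 to 39.6) and Cdc14a (259 to 285 and 214 to 286) overlapped between the groups. Over the genome 307 tested genes held a hairpin of either form in a UTR, and 1 of them was called, beside 0.258% of all genes called lower. That gene was Slc11a2, which this comparison chose, and nothing is read from the count.

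The plasma carrier genes Trf, Hpx and Hp, chosen after their values were seen, were highest in the 2 libraries with liver transcripts. Trf, the transferrin gene, was at 79.9, 23.9 and 705 normalized counts in control and at 668, 82.6 and 34.1 in STING KO. Hpx, which carries heme, was at 31.9, 19.0 and 223 in control and at 263, 25.9 and 19.1 in STING KO, and Hp, which carries hemoglobin, was at 34.9, 16.96 and 169.9 and at 209.8, 33.9 and 17.1. Control replicate 3 and STING KO replicate 1 were the highest libraries for all 3 genes, as they were for Alb. Slc11a2 did not show this pattern, since its values in those 2 libraries lay between the others of their group. The 10 macrophage and leukocyte markers summed to 780 to 985 in control and 842 to 995 in STING KO, mostly Cd68, and the 8 erythroid markers summed to 430.3 to 463 and 467 to 484, mostly Epor.

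**Figure D5:**
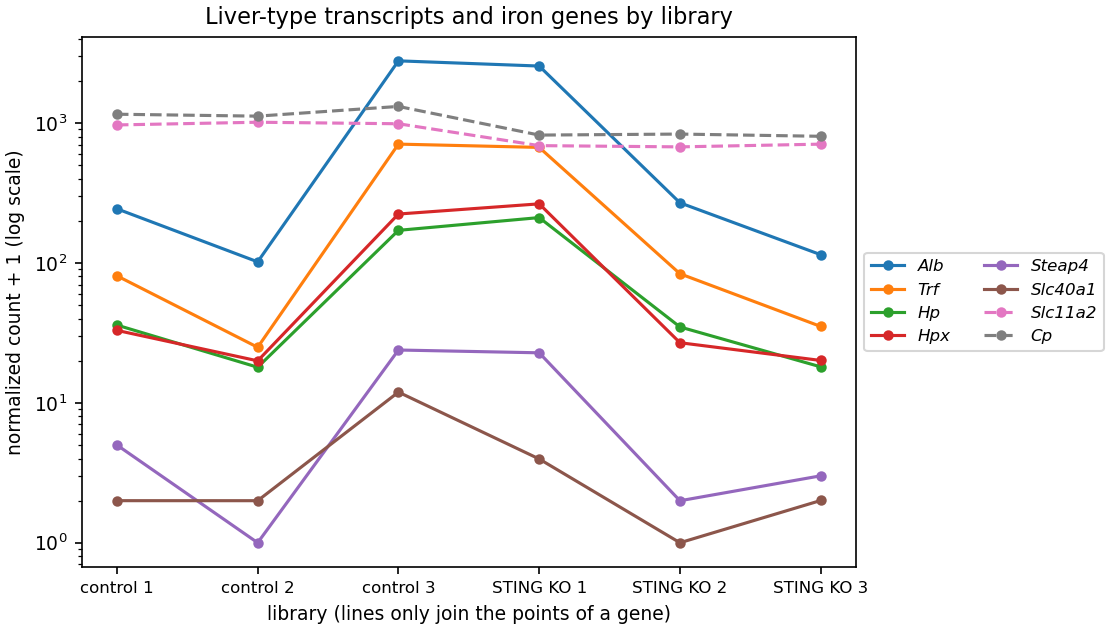
Normalized count plus 1, on a log axis, of Alb, 3 plasma carrier genes, Steap4 and Slc40a1 (solid lines) and of Slc11a2 and Cp (dashed lines) in the 6 libraries; lines only join the points of a gene. Alb, Trf, Hp and Hpx peak in control replicate 3 and STING KO replicate 1, while Slc11a2 steps down from control (967 to 1012) to STING KO (674 to 705).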

How the data were processed

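Poly(A) RNA of 3 control and 3 STING KO L929 samples was measured, grouped and numbered by sample title. The deposited table holds, per the file headers and its values, a signal for each sample (gene counts that the authors divided by a size factor), the authors' log2 fold change with its standard error, a Wald score, and a p-value with its adjusted value. Per the submitters' processing notes, which give no role or order, DESeq2 1.4.5, RSEM 1.2.12, Bowtie2 2.2.5 and HISAT2 2.0.4 were used with builds GRCm38 and mm10. The annotation and any use of strand were not given in the sources used here. Overlapping or near-identical genes may share reads.

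The first row of each of 27507 identifiers was used (27821 rows). The main test was limma-trend (limma 3.58.1, R 4.3.3) of log2(normalized count + 0.1) for the 12408 genes that reached 10 in 3 or more samples. A gene was called where its p, adjusted by Benjamini-Hochberg over these genes, was 0.05 or less. In each sample 100% of values above 0 were whole multiples (tolerance 0.01) of 1 step, 0.990 to 1.004, but the values were tested as normalized, with limma, and the planned count tests were not run. On simulated data for these 12408 genes and this comparison 86.6% of 67 genes given a 1.5-fold change were recovered, as were 95.5% of 67 given a 2-fold one. The simulation gave every gene the same spread beyond count noise and no trend shared within a library. It therefore does not show the recovery of real genes that vary more, such as Lcn2.

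Named genes are the 10 members, the called genes and the 2 of smallest p of each iron list, the 6 genes most correlated with Slc11a2, and Sting1. Genes named beyond these (Trf, Hp, Hpx, Hamp, Slc11a1, Steap4 and markers) were chosen after their values were seen. Members and lists were chosen with earlier results of these data known. Alternatives were other scalings, filters, pseudocount, a replicate block, limma-voom, a length correction and leaving out libraries. At 14382072 to 14526606 normalized counts a sample, genes near 1 count have no usable precision.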

Additional observations from a re-analysis of the deposited data

How the results depend on the processing

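Of 162 values of the members under another setting, 159 stayed on their side of the threshold, 2 of Slc11a2 no longer passed it, 1 of Tfrc newly passed it and 0 turned sign while called. The labels state no pairing by replicate number. The deviations of samples that share a number had correlations of -0.18, -0.18 and -0.49. With 3 samples per group and a length trend that differs between libraries, these values cannot show whether samples were handled in pairs. Under the replicate block 18 genes were called lower and so was 1 of the iron list genes, and Slc11a2 was at -0.52 (adjusted p = 0.0955) and Cp at -0.54 (0.131), so that neither was called. Without both libraries with liver transcripts 13 genes were lower and Slc11a2 was at -0.52 (0.214), with 2 samples per group. Leaving out each library in turn gave 0 to 2 genes higher, 21 to 35 lower, 1 to 3 iron list genes called and an adjusted p of Slc11a2 of 0.00174 to 0.0324. The lowest counts, 21 lower genes and 1 iron list gene, came without control replicate 1, and the 2 higher genes without control replicate 2. Without control replicate 2 and STING KO replicate 3, a setting added after the data were seen, 41 genes were higher, 91 lower and 4 iron list genes called, with all 32 genes called before among them. Removing the length trend, also added later, gave 5 genes higher, and the authors' deposited test has 6. The planned count tests on whole reads were not run. A gene at a few counts, such as Slc40a1, cannot be compared at this depth.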

Other observations

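DMT1 and ZIP14 also carry other metals, and 33 further genes of zinc, copper and metallothionein handling were looked up after the iron results were seen. Of these 26 were tested and 0 were called by limma, by limma-voom or in the authors' deposited table. An unadjusted p at or under 0.05 was reached by 2, Slc31a2 and Slc39a6, beside 6.37% of all genes tested. The median log2 fold change of the 26 was 0.01. The metallothionein gene Mt1, which responds to zinc, was at 6316, 7252 and 5940 normalized counts in control and at 6958, 6759 and 8001 in STING KO, with overlapping groups. Slc31a2, a relative of the copper importer, was at 351, 322 and 311 in control and at 260.3, 265 and 280.2 in STING KO, and Mtf1, the zinc-sensing transcription factor gene, was at 478, 468 and 545 and at 428, 449 and 449. The groups of Slc31a2 and Mtf1 did not overlap, which was so in the lower direction for 6.32% of all genes tested, and neither gene was called (limma adjusted p = 0.479 and 0.738).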
